A study of Rattus norvegicus with 12 samples.

Results

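Rat hepatic progenitor cells (HPCs) labelled Tnfrsf1β-/- and exposed for 1 hour to TNFα, the cytokine tumour necrosis factor alpha, were compared with untreated cells carrying the same label. HPCs are bipotent precursors from which both hepatocytes and biliary cells form. The libraries compared were taken by their labels and the tested genes by a level filter, and the comparison rests on 2 treated and 2 untreated of the 12 RNA-seq libraries of the series. The other 8 libraries are wild type and Tnfrsf1α-/- HPCs, each with 2 untreated and 2 treated libraries. All 12 share gestation day 13.5 as their age, and the genotype and TNFα are the only alleles and agents named. The dose of TNFα, the way the alleles were made, and the number of animals or cultures behind a library are not stated. Replicates may therefore be technical, and each p-value measures no more than the spread between these libraries. Of 22384 lines with a gene symbol, 11860 had a mean of at least 1 FPKM (sequenced fragments corrected for transcript length and library size) over the 12 libraries and were tested.

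TNFα signals through a pair of receptors. TNFR1, encoded by Tnfrsf1a, carries a death domain and assembles RIPK1 and TRAF2 into the complex that activates NF-kB and MAP kinases, while TNFR2, encoded by Tnfrsf1b, lacks a death domain and binds TRAF proteins directly. In most cells that respond, TNFα raises the transcripts of NF-kB inhibitors, chemokines and immediate early genes within an hour, and in liver it is known for priming progenitor and hepatocyte division after injury. The series title joins TNFR2 to the RNA-binding protein hnRNPK and to YAP, the transcriptional co-activator that the Hippo kinases restrain. Levels below are log2(FPKM + 1), a scale corrected for gene length, with the 2 untreated libraries given before the 2 treated ones in replicate order. Changes are treated minus untreated on that scale, with standard errors (SE) and Benjamini-Hochberg adjusted p-values from limma.

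The libraries differed in ways that the treatment label alone does not describe. Summed FPKM was 453243 and 447554 in the untreated libraries and 1076956 and 1176115 in the treated ones. Cytosolic ribosomal protein genes took 9.6% and 9.26% of it untreated and 21.3% and 23.9% treated. The 12 listed mitochondrially encoded genes took 4.6% and 4.58% against 1.98% and 1.46%. Mt-cox3, at 0.813% and 0.778% of the untreated totals, is not among the 12 and is left out of these shares. The untreated pair had a Spearman correlation of 0.996 over the tested genes. The treated pair reached 0.974, and treated replicate 1 was closer to untreated wild type replicate 1 (0.983) than to its own replicate. Over all 4 pairs, treated Tnfrsf1β-/- against untreated wild type gave 0.953 to 0.983. Treated against untreated libraries of this label gave 0.736 to 0.792. The untreated libraries were in turn close to the untreated ones labelled Tnfrsf1α-/- (0.974 to 0.981), and their correlation with untreated wild type was 0.723 to 0.815. Whether each library carries the right label cannot be told from these values, and below "untreated" and "treated" mean the libraries so labelled. The part that this likeness of libraries has in the changes below was not tested. Without treated replicate 1 6677 genes changed by the test below, and without treated replicate 2 it was 4979, against 7172 with both. The 2 treated libraries labelled Tnfrsf1α-/- had a correlation of only 0.782, and they enter the estimate of spread that all groups share. Without both of them 8762 genes changed, so a gene that does not pass below may owe this to their spread. Because these are bulk samples, fewer cells of a kind and less RNA per cell cannot be told apart.

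After TNFα, 7172 genes (60.5% of those tested) passed an adjusted p of 0.05, of which 2086 (17.6%) were higher and 5086 (42.9%) lower, and the median change over all tested genes was -0.66. The transcripts that fell included most immediate early genes, most NF-kB and IkB genes and most Hippo pathway components. Those that rose included nearly all ribosomal protein genes and a set of genes that went from near 0 to some of the highest levels in the library. Fitted rises of at least 16-fold on the log2(FPKM + 1) scale were called for 166 genes (1.4%) and fitted falls of that size for 13 (0.11%). Both counts include genes listed at 0 in both libraries of a condition, from which no fold is read. Calls also followed the mean level over the 12 libraries. Among the 2965 tested genes of highest mean level 44.4% were higher and 19.9% lower. Among the 2965 of lowest mean level the shares were 4.49% and 49.8%. The gene lists below are set beside all tested genes and not beside genes of like level. An FPKM value is relative to its library, so the balance of rises and falls depends on scaling. Median-ratio scaling called 54.7% of genes, 3235 higher (27.3%) and 3247 lower (27.4%), with a median of -0.05. Quantile normalization called 54.4%, 2890 higher (24.4%) and 3563 lower (30%), with a median of -0.10. Of the 7172 calls, 5333 were also made in the same direction after median-ratio scaling and none in the opposite one. After quantile normalization the numbers were 5018 and 40.

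**Figure D1:**
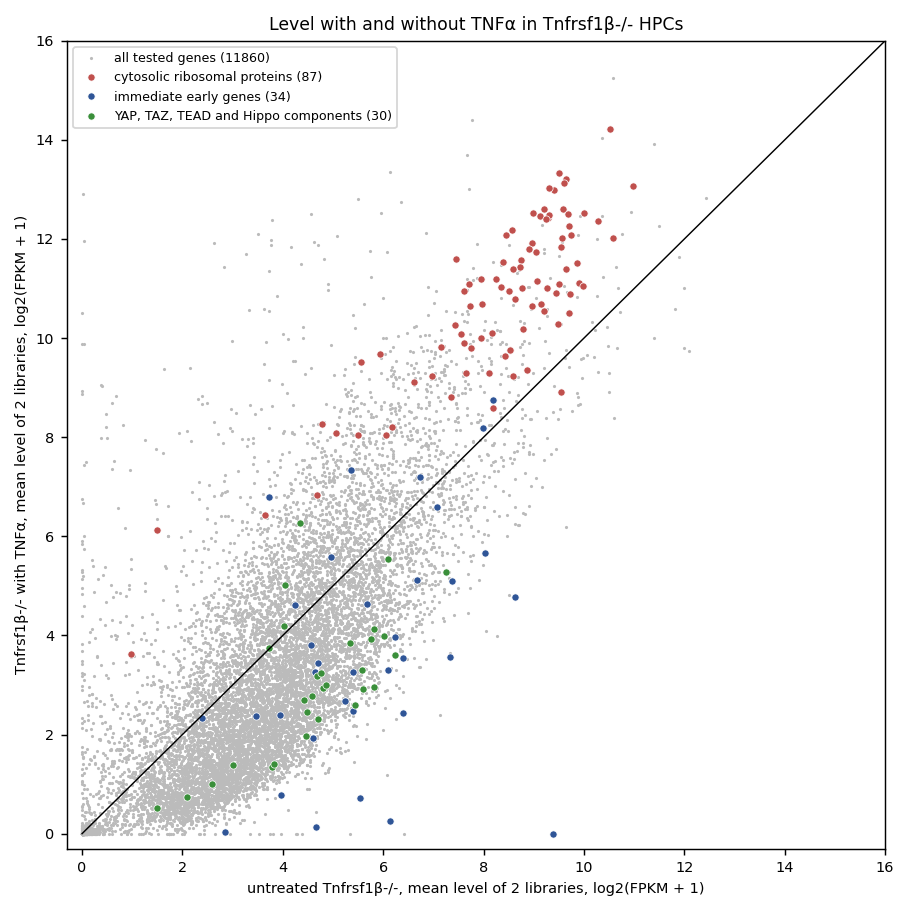
Mean level of each of the 11860 tested genes in the 2 untreated (x axis) and the 2 TNFα-treated (y axis) Tnfrsf1β-/- libraries, both as log2(FPKM + 1), with the line of equal levels. Cytosolic ribosomal protein genes (87 red points) lie at or above the line except 1, most immediate early genes (34 blue) and Hippo components (30 green) lie below it, and a scatter of grey points near 0 on the x axis, Akr1c3 and Igfbp3 among them, reaches high treated levels.

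The genes of the series title were examined first. Tnfrsf1b was listed at 0 in all 4 Tnfrsf1β-/- libraries, but it was also at 0 in both untreated wild type libraries, at 2.58 and 2.43 in treated wild type, and above 0.03 in only 1 library labelled Tnfrsf1α-/-, at 4.09. The knockout therefore rests on its label. Tnfrsf1a was at 5.83 and 5.80 untreated and at 4.85 and 4.71 treated, a change of -1.04 (SE 0.19, adjusted p = 0.0018) that was -0.28 and not called after median-ratio scaling (adjusted p = 0.242). Its levels were 5.65 to 6.13 in the 4 libraries labelled Tnfrsf1α-/- and 5.15 to 5.65 in wild type, so that knockout too rests on its label.

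Yap1 was at 5.94 and 6.07 untreated and at 4.38 and 3.58 treated, a change of -2.03 (SE 0.65, adjusted p = 0.0253). Both treated libraries lay below both untreated ones. The call was lost after median-ratio scaling (-1.28, adjusted p = 0.0887), without treated replicate 2 (adjusted p = 0.15), and without untreated replicate 1 (0.0804) or 2 (0.0972). Wwtr1, which encodes the YAP paralogue TAZ, went from 5.81 and 5.83 to 4.33 and 3.90, a change of -1.70 (SE 0.23, adjusted p = 0.000574) called under both scalings. Hnrnpk did not pass the test: it was at 6.72 and 6.77 untreated and at 6.80 and 6.34 treated (-0.18, SE 0.62, adjusted p = 0.843), and the ranges overlapped. Its change was 0.60 after median-ratio scaling, -1.04 after quantile normalization (adjusted p = 0.236) and 0.06 without treated replicate 2, none of them called. In wild type the same gene went from 7.24 and 6.55 to 11.41 and 10.33, and in the libraries labelled Tnfrsf1α-/- from 8.03 and 7.84 to 12.70 and 10.62. The signed response of Hnrnpk was lower in Tnfrsf1β-/- than in wild type (adjusted p = 0.00342) and than under the label Tnfrsf1α-/- (adjusted p = 0.0211, both limma).

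**Figure D2:**
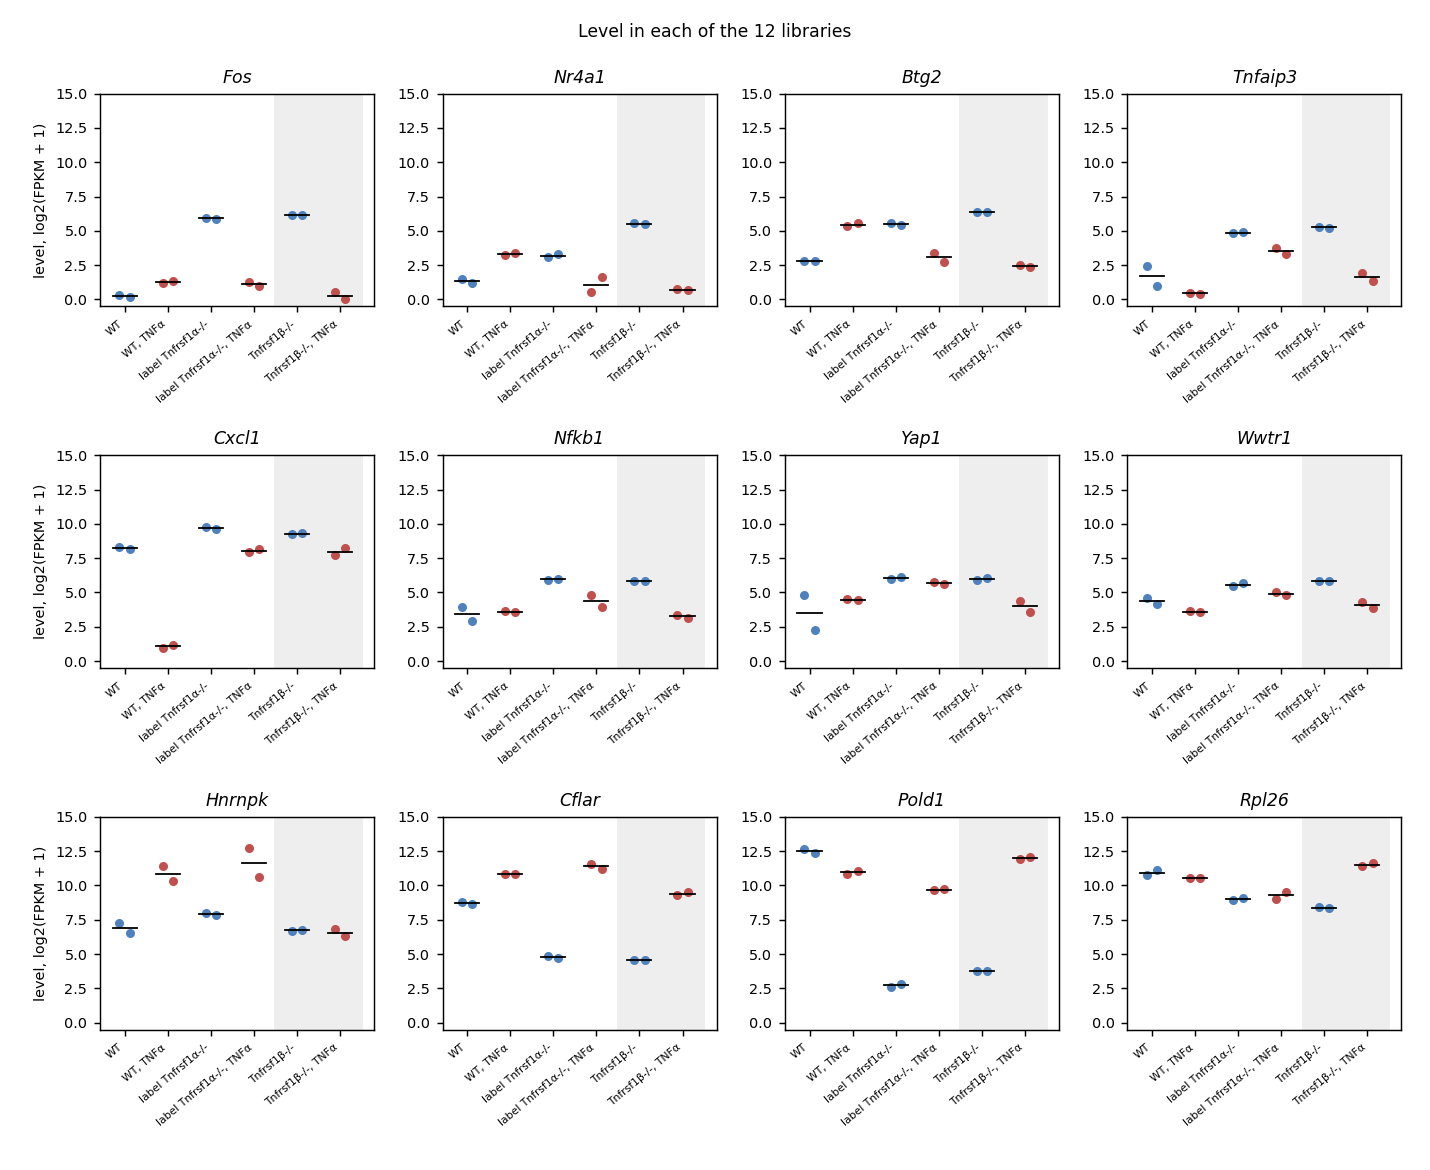
Level of 12 genes as log2(FPKM + 1) (y axis) in each of the 12 libraries, with untreated libraries in blue, TNFα-treated ones in red, a line at each group mean and the Tnfrsf1β-/- groups shaded (x axis: genotype label and treatment). In Tnfrsf1β-/- Fos, Nr4a1, Btg2, Tnfaip3 and Nfkb1 are lower in both treated libraries and Cflar, Pold1 and Rpl26 higher, while Hnrnpk overlaps between treated and untreated.

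Among TNF receptors and their adaptors, 7 of 29 tested genes rose (24.1%) and 14 fell (48.3%), with a median change of -0.69. These shares were near the 17.6% and 42.9% of all genes. The majority turned after median-ratio scaling (10 higher, 7 lower) and was 7 and 8 after quantile normalization, so no direction is given for the group. Ripk1, the kinase recruited to TNFR1, went from 3.79 in both libraries to 1.73 and 1.29 (-2.28, SE 0.29, adjusted p = 0.000464). Traf3, an inhibitor of non-canonical NF-kB signalling, went from 3.65 and 3.66 to 1.79 and 1.39 (-2.06, SE 0.28, adjusted p = 0.000542), and Birc2, the ubiquitin ligase cIAP1, from 3.41 and 3.39 to 2.01 and 1.73 (-1.53, SE 0.21, adjusted p = 0.000615). Among the risers was Cflar, which encodes the caspase-8 inhibitor cFLIP and went from 4.57 and 4.55 to 9.30 and 9.49 (4.84, SE 0.18, adjusted p = 3.78e-07). Map3k7, the kinase TAK1, was at 3.67 and 3.71 untreated and fell to 1.80 and 0 (adjusted p = 0.00227), with treated replicates far apart from each other.

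No NF-kB or IkB gene rose, and 10 of 13 fell, with a median of -1.59. Nfkb1, the p105/p50 subunit, was at 5.85 and 5.82 untreated and at 3.38 and 3.13 treated (-2.58, SE 0.37, adjusted p = 0.000692). Nfkb2, the p100/p52 subunit, went from 4.65 and 4.74 to 3.01 and 3.19 (-1.59, SE 0.31, adjusted p = 0.00248), and Nfkbiz, a nuclear IkB protein, from 5.43 and 5.41 to 2.36 and 2.02 (-3.23, SE 0.63, adjusted p = 0.00259). The kinase gene Ikbkb fell by 1.53 (SE 0.29, adjusted p = 0.00244), from 4.18 in both libraries to 3.0 and 2.31. In each of these 4 genes every treated library lay below every untreated one. After median-ratio scaling 6 of the 13 were lower and 1 higher, and after quantile normalization 8 and 1. Without treated replicate 1 the count of falls was 7, and without replicate 2 it was 8.

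The feedback and adhesion targets of NF-kB followed the same direction, with 17 of 23 lower and 1 higher (median -1.21). Median-ratio scaling left 7 lower and 2 higher, and leaving out either treated replicate left 11 lower. Tnfaip3 encodes A20, the deubiquitinase that shuts TNF signalling down. It was at 5.26 and 5.23 untreated and at 1.96 and 1.37 treated (-3.58, SE 0.42, adjusted p = 0.000346). Ptgs2, the inducible cyclooxygenase, went from 6.39 and 6.4 to 3.16 and 2.55 (-3.54, SE 0.38, adjusted p = 0.000229), and Zc3h12a, the RNase Regnase-1, from 6.01 and 6.10 to 3.98 and 4.47 (-1.83, SE 0.23, adjusted p = 0.000442). The only riser of this list was Bcl2l1, the anti-apoptotic gene of BCL-XL, at 4.39 and 4.33 untreated and 11.43 and 11.57 treated (7.14, SE 0.21, adjusted p = 8.97e-08).

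Of 13 chemokine genes tested, 5 fell and 2 rose, shares of 38.5% and 15.4% that are near those of all genes. Cxcl1, a neutrophil attractant, was at 9.24 and 9.31 untreated and at 7.70 and 8.27 treated (-1.29, SE 0.21, adjusted p = 0.00119), and was not called after median-ratio scaling (-0.52, adjusted p = 0.159). Cxcl2 went from 3.11 and 2.91 to 0.27 and 0.59 (-2.58, SE 0.40, adjusted p = 0.000934) and Cxcl10 from 7.75 and 7.76 to 6.73 and 5.68 (-1.55, SE 0.30, adjusted p = 0.00245). Ccl20, a lymphocyte attractant, stood at 3.72 and 3.76 before TNFα and at 0 in both libraries after it (adjusted p = 0.00342), with no fold given against 0. After median-ratio scaling the chemokines gave 4 falls and 2 rises. Cytokine and colony-stimulating factor genes gave 7 falls and 1 rise among 13, with a median of -0.99 and 53.8% lower against 42.9% of all genes. The falls were 3 by median-ratio and 5 by quantile scaling, beside 1 and 2 rises, and 4 without either treated replicate. Tslp fell from 2.68 and 2.49 to 0.44 and 0, Csf3 from 3.26 and 3.41 to 1.07 and 1.74, and Il6 from 1.11 and 1.29 to 0.12 and 0.10, while Il33 rose from 0.71 and 0.65 to 1.32 and 2.05, with limma adjusted p-values of 0.00139, 0.00453, 0.00703 and 0.00816.

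Promoter sequence is shown for 3 of these genes because the kappaB site, the DNA motif bound by NF-kB, is the textbook route from TNFα to their transcription. The stretches are from RefSeq on the rat assembly GRCr8, read 5′ to 3′ on the strand of the gene, and the capitals mark the matches to the kappaB consensus. Each runs from 100 to 21 bases before the annotated start.
Tnfaip3 (chr1:15544000-15544079, minus strand): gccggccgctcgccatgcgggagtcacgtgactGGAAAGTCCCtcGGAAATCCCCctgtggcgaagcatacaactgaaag
Cxcl1 (chr14:17479342-17479421, minus strand): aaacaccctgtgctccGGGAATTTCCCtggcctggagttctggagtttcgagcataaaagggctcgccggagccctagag
Cxcl2 (chr14:17467276-17467355, minus strand): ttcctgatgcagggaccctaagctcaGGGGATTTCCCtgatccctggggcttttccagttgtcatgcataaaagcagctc

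On either strand of the window from 250 bases before to 50 after the start, the consensus was found in 8 of the 11 NF-kB and IkB genes with a promoter entry, 8 of 20 feedback and adhesion targets and 6 of 10 chemokines. Over all 27457 genes with a promoter entry the share was 8.16%, over tested genes 10.6%, over genes called lower 10.8% and over genes called higher 8.82%. A gene counted if any of its promoters held a match. The shares are a description of these lists. A match is not evidence of binding, and the consensus was about as frequent among all genes that fell as among all genes tested.

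Immediate early genes, which growth factors and cytokines switch on without new protein synthesis, gave 21 falls and 3 rises among 34 tested, with a median of -2.20. Falls outnumbered rises under both scalings (20 and 6 by median-ratio, 23 and 2 by quantile scaling) and without treated replicate 1 (22 and 3) or 2 (17 and 2). Fos, an AP-1 subunit, was at 6.15 and 6.12 untreated and at 0.51 and 0 treated (-5.88, SE 0.23, adjusted p = 5.06e-07). Nr4a1, an orphan nuclear receptor, went from 5.58 and 5.48 to 0.73 and 0.71 (-4.81, SE 0.33, adjusted p = 2.16e-05), and Fosb, the FOS paralogue, from 4.66 in both to 0.17 and 0.10 (-4.52, SE 0.32, adjusted p = 2.26e-05). Btg2, an antiproliferative gene also induced by p53, went from 6.37 and 6.4 to 2.53 and 2.33 (-3.96, SE 0.23, adjusted p = 7.76e-06). For all 4 the treated libraries were far below the untreated ones and near the untreated wild type libraries, where Fos was at 0.33 and 0.16, Nr4a1 at 1.47 and 1.19, Fosb at 0.30 and 0, and Btg2 at 2.80 and 2.83.

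Further members, named after their values were seen, fell in the same way. Zfp36, the mRNA-decay factor tristetraprolin, went from 7.29 and 7.38 to 3.58 and 3.54, and Dusp5, a phosphatase of ERK, from 5.41 and 5.39 to 2.49 and 2.45. Ier2 went from 6.41 and 6.4 to 3.64 and 3.44, and Egr2, a zinc-finger transcription factor, from 2.84 and 2.87 to 0 and 0.06. Their adjusted p-values by limma were 3.42e-05, 3.63e-05, 3.64e-05 and 0.000346. Spry4 and Dusp6, inhibitors of receptor tyrosine kinase and ERK signalling, rose instead: Spry4 from 3.78 and 3.67 to 7.12 and 6.46 and Dusp6 from 5.38 and 5.33 to 7.46 and 7.21 (adjusted p = 6.18e-05 and 0.000579). Egr1, the best known gene of the class, did not pass the test, at 7.99 in both untreated libraries and 8.26 and 8.13 treated (adjusted p = 0.506). It was called higher after median-ratio scaling (0.98, adjusted p = 0.0155) and lower after quantile normalization (-1.25, adjusted p = 0.0035).

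Promoter stretches of 5 of these genes are printed because the elements that make immediate early genes inducible, the CArG box bound by serum response factor and the cAMP response element TGACGTCA bound by CREB, lie close to their starts. They are from RefSeq (GRCr8), 5′ to 3′ on the gene's strand, with the matches in capitals.
Zfp36, CArG box (chr1:92799109-92799188, minus strand): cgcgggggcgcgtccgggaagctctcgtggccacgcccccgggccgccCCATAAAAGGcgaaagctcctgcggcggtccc
Dusp5, a pair of CArG boxes (chr1:262543674-262543753, plus strand): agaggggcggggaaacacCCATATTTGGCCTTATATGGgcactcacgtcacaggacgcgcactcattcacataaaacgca
Egr2, CArG box (chr20:21054462-21054541, minus strand): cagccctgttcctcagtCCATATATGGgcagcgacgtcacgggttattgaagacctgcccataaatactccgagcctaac
Btg2, cAMP response element (chr13:48087851-48087930, minus strand): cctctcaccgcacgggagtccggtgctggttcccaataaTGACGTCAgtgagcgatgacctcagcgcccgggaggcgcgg
Ier2, cAMP response element (chr19:40399273-40399352, plus strand): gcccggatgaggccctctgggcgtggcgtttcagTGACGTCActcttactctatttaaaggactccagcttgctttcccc

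Of the 24 immediate early genes with a promoter entry, 6 held a CArG box and 5 held TGACGTCA, on either strand of the 250 bases before and 50 after the start. The CArG box was found in 1.77% of all genes with a promoter entry and 1.23% of such genes called lower, and TGACGTCA in 2% and 3.34%. Both elements are known to be common in this class of gene, which the list was built from, and the shares among all genes that fell were near those of all tested genes, 1.46% and 3.29%.

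**Figure D3:**
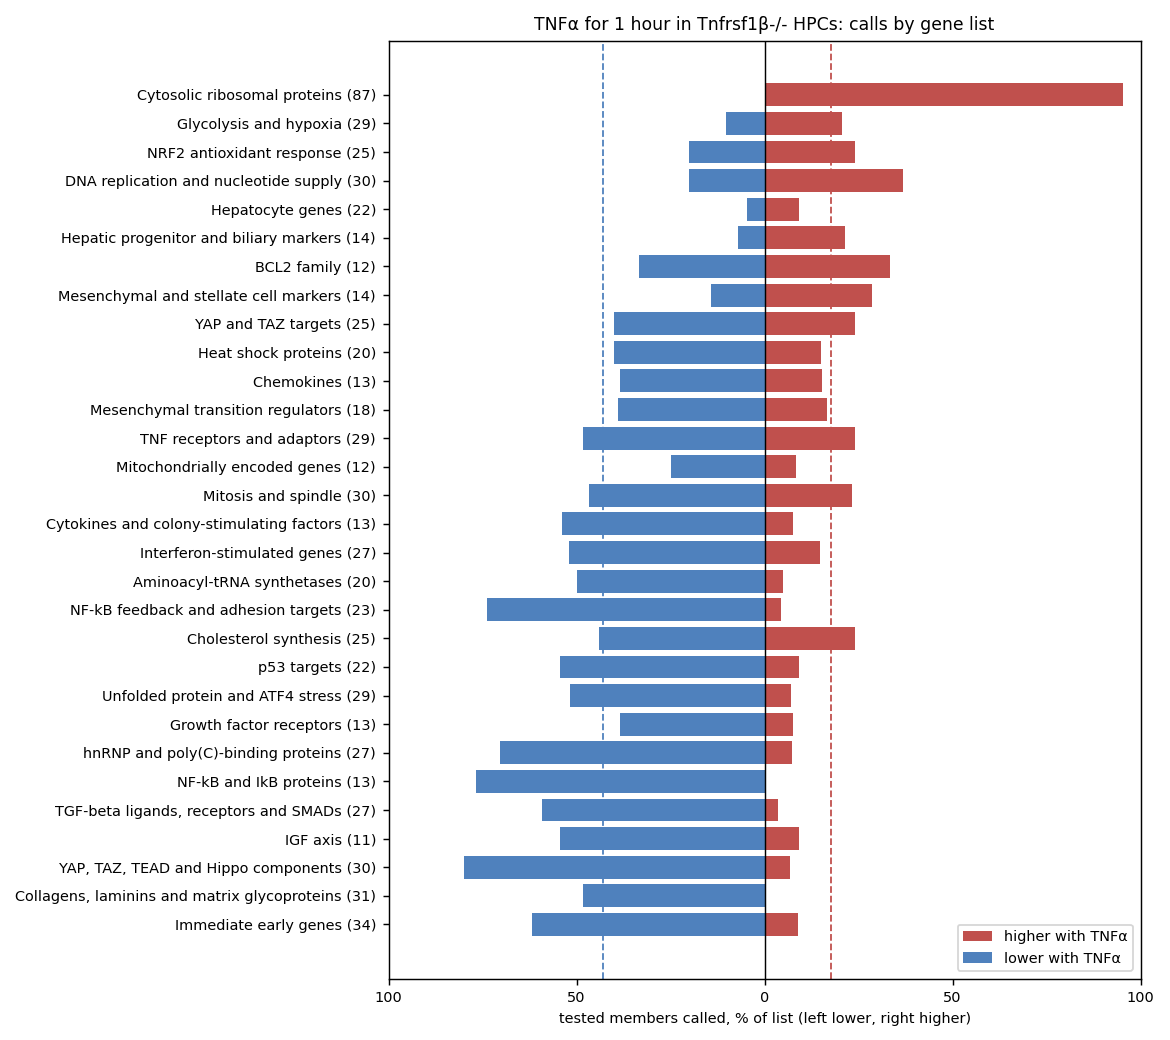
Share of tested members called higher (red, to the right) or lower (blue, to the left) after TNFα in Tnfrsf1β-/- cells, in percent (x axis), for the 30 gene lists with at least 5 tested members (rows, number tested in brackets), ordered by median change. The dashed lines mark the shares of all tested genes, 17.6% higher and 42.9% lower: the red bar of the ribosomal list ends at 95.4%, and the blue bars of the Hippo components (80%), NF-kB and IkB proteins (76.9%) and NF-kB feedback targets (73.9%) pass the line.

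The Hippo pathway is a kinase cascade, MST to LATS, that holds YAP and TAZ in the cytoplasm and away from the TEAD factors. Of its 30 listed components 24 were lower after TNFα and 2 higher, with a median of -1.82. The counts were 19 and 4 by median-ratio, 22 and 4 by quantile scaling, 22 and 2 without treated replicate 1, and 19 and 1 without replicate 2. Stk4, the kinase MST1, was at 3.0 and 3.02 untreated and 1.5 and 1.27 treated (-1.62, SE 0.24, adjusted p = 0.000765). Lats1, the kinase that phosphorylates YAP, went from 3.78 and 3.80 to 1.43 and 1.26, and Tead1 from 5.82 and 5.83 to 3.15 and 2.74 (adjusted p = 0.00141 and 0.00612). Amotl2, a junctional protein that binds YAP and is itself a YAP target, fell from 7.25 and 7.26 to 5.43 and 5.13 (-1.98, SE 0.23, adjusted p = 0.000295). Falls were thus found among kinases, junctional proteins and TEAD partners alike. The components that rose were Frmd6, from 4.30 and 4.40 to 6.10 and 6.41 (1.91, SE 0.24, adjusted p = 0.000462), and Tead2, from 4.10 and 3.99 to 4.66 and 5.37 (adjusted p = 0.0211). The Tead2 call was lost without treated replicate 2 (change 0.61) and without untreated replicate 1 (1.02) or 2 (0.92).

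The transcripts that YAP and TAZ are known to drive moved in both directions. Among 25 tested targets 6 rose (24%) and 10 fell (40%), near the 17.6% and 42.9% of all genes (median -0.55). The counts were 7 and 5 by median-ratio and 8 and 10 by quantile scaling, so the majority depended on scaling. Cyr61, a secreted matrix protein and classical YAP target, counted in the immediate early list too, stood at 9.42 and 9.36 before TNFα and at 0 in both libraries after it (adjusted p = 0.00522). It was also at 0 in 1 untreated wild type library and at 7.85 in the other. Ctgf, its close relative, fell from 8.19 and 8.24 to 7.67 and 6.96 (adjusted p = 0.0193), a call lost after median-ratio scaling. Igfbp3, a binding protein of insulin-like growth factors, had untreated values of 0 in both libraries and treated values of 10.42 and 10.57 (adjusted p = 5.45e-09). Nt5e, the ectonucleotidase CD73, rose from 0.49 and 0.68 to 8.65 and 8.73 (8.10, SE 0.17, adjusted p = 1.62e-08), and Dock5, an activator of the GTPase Rac, from 5.28 and 5.32 to 8.98 and 8.84 (3.61, SE 0.30, adjusted p = 6.63e-05). Ankrd1 rose from 2.69 and 2.43 to 5.81 and 6.10, and Crim1 from 7.05 and 7.02 to 9.46 and 8.90 (adjusted p = 0.000438 and 0.00028). Targets at the extremes of the list therefore lay on opposite sides, and no common shift of the group was measured.

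Genes of the hnRNP family, whose proteins coat nascent RNA and steer splicing, fell in 19 of 27 cases and rose in 2, with a median of -1.55 (16 and 5 by median-ratio, 21 and 2 by quantile scaling, 19 and 2 without treated replicate 1, 16 and 1 without replicate 2). Hnrnpa2b1 was at 9.30 and 9.38 untreated and 7.96 and 7.38 treated (-1.67, SE 0.25, adjusted p = 0.000903). Hnrnpul2 went from 6.59 and 6.60 to 4.98 and 4.30 (-1.95, SE 0.32, adjusted p = 0.00124), and Ptbp2, a splicing repressor best known in neurons, from 3.43 and 3.54 to 0.84 and 0.57 (-2.78, SE 0.30, adjusted p = 0.000232). Both lines of Hnrnpa3 fell as well. Hnrnpk of the title was among the 6 that did not pass, together with Hnrnpl, Hnrnpab, Hnrnph1, Ptbp1 and Pcbp3. Hnrnpab, Hnrnpl and Ptbp1 were called higher after median-ratio scaling and lower after quantile normalization. Their changes after quantile normalization were -1.34, -1.28 and -1.11 (adjusted p = 0.00244, 0.000917 and 0.005).

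The cell identity of these libraries was read from marker lists. Of 25 progenitor and biliary marker lines 6 were at 0 in all 4 Tnfrsf1β-/- libraries, and only 4 exceeded 1 FPKM in both untreated ones. Krt19, Epcam, Krt18, Afp and Cd24 were at 0 or no more than 0.24 in each of the 4, so these 5 defining markers of the labelled cell type were absent or nearly so. Krt8, a simple epithelial keratin, and Cd44, a hyaluronan receptor, were present, at 7.44 and 7.45 untreated and 8.62 and 8.02 treated for Krt8 and at 5.97 and 5.90 against 5.67 and 5.11 for Cd44, and neither passed the test (adjusted p = 0.617 and 0.469). Krt7, a bile duct keratin, was at 7.67 and 7.64 untreated and rose to 13.60 and 13.81 (6.05, SE 0.25, adjusted p = 5.88e-07). Sox9, a transcription factor of biliary progenitors, went from 0.04 and 0.02 to 6.30 and 5.69 (5.96, SE 0.26, adjusted p = 9.37e-07), and Cdh1, E-cadherin, from 0.05 and 0.02 to 2.96 and 3.26 (3.08, SE 0.51, adjusted p = 0.00127). Igf2bp3, a fetal RNA-binding protein, fell from 3.09 and 3.17 to 0.91 and 0.78 (-2.29, SE 0.36, adjusted p = 0.00104). Of 14 tested markers of this list, these 4 were the only ones called.

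Hepatocyte genes were largely silent on both sides. Alb, Ahsg and Hnf4a were listed at 0 in all 4 libraries, 18 of 30 lines were at 0 throughout, and the summed level of the list was 20.1 and 18.4 FPKM untreated and 42.4 and 65.6 treated. Ambp accounted for most of that, at 0 in both untreated libraries and 4.63 and 5.66 treated (adjusted p = 6.73e-05). Macrophage markers summed to 27.6 and 26.0 FPKM untreated and 31.0 and 29.0 treated with 9 of 15 lines at 0, endothelial markers to 6.45 and 5.96 against 13.0 and 21.5, and erythroid genes to 1.10 and 0.886 against 9.49 and 8.98. Their part in the result was not tested. None of these sums is a share of the library, and summed FPKM of all genes was also higher treated (1076956 and 1176115) than untreated (453243 and 447554).

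Mesenchymal and stellate cell markers were the abundant class, with 14 of 24 lines above 1 FPKM in both libraries of each condition and a summed level of 9340 and 9020 FPKM untreated and 43100 and 50200 treated. Nearly all of that gain lay in S100a6, a calcium-binding protein, since the list without it summed to 7740 and 7580 FPKM untreated and 8340 and 6470 treated. These sums are not shares of the library. Summed FPKM of all genes was itself higher in the treated libraries (1076956 and 1176115) than in the untreated ones (453243 and 447554). The level of S100a6 was 10.65 and 10.5 untreated and 15.09 and 15.42 treated, a rise (4.68, SE 0.41, adjusted p = 8.39e-05). Dcn, the proteoglycan decorin, rose from 1.85 and 2.04 to 5.23 and 3.80 (2.56, SE 0.48, adjusted p = 0.00212), and Des, desmin, from 4.33 and 4.26 to 6.4 and 5.35 (1.58, SE 0.33, adjusted p = 0.00365). Vim, vimentin, did not pass, at 9.93 and 9.95 untreated and 10.23 and 8.93 treated (adjusted p = 0.411). After quantile normalization it was called lower (-2.19, adjusted p = 0.000939), and after median-ratio scaling its change was 0.42 and not called. In the list 4 of 14 tested genes rose (28.6%) and 2 fell (14.3%), against 17.6% and 42.9% of all genes. The fallers were the collagens Col1a1 and Col3a1, and the majority turned after quantile normalization (3 higher, 6 lower). The transition regulators were mixed too: Cdh2, N-cadherin, rose from 5.58 and 5.55 to 8.23 and 8.28, and Zeb1 from 4.64 and 4.66 to 6.87 and 5.91, while Zeb2 fell from 3.35 in both to 1.34 and 0.78 (adjusted p = 1.83e-05, 0.00261 and 0.00215).

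Matrix genes fell where they changed. Of 31 collagens, laminins and matrix glycoproteins 15 were lower (48.4%, against 42.9% of all genes) and none higher, with a median of -1.89. The falls numbered 12 and 17, with no rises, under median-ratio scaling and quantile normalization. Without treated replicate 1 the falls numbered 15, and without replicate 2 they numbered 13 with 1 rise. Col1a1, the main chain of type I collagen, was at 10.62 and 10.57 untreated and 8.53 and 8.23 treated (-2.22, SE 0.36, adjusted p = 0.00124), and Col3a1 went from 8.24 and 8.28 to 4.25 and 3.71 (-4.28, SE 0.99, adjusted p = 0.00595). Lama5 and Lamb2, chains of basement membrane laminin, fell from 6.99 and 6.98 to 3.34 and 4.48 and from 5.82 in both to 3.75 and 3.59 (adjusted p = 0.000969 and 0.000527). The TGF-beta pathway is known for driving matrix genes in liver fibrosis. In its list 16 of 27 ligands, receptors, SMADs and targets were lower and 1 higher (median -1.65; 11 and 2 after median-ratio scaling; 10 and 2 without treated replicate 2). Smad3, its main signal transducer, was at 4.93 and 4.94 untreated and 2.91 and 2.52 treated (-2.22, SE 0.28, adjusted p = 0.000451), and Smad4, the common partner, went from 5.42 and 5.41 to 3.24 and 2.69 (-2.45, SE 0.41, adjusted p = 0.00135).

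The steepest rises belonged to genes of varied function. Akr1c3, an aldo-keto reductase whose paralogues share sequence, went from 0.09 and 0 to 11.83 and 12.09 (11.92, SE 0.19, adjusted p = 5.45e-09). Phf19, a Polycomb-associated protein, went from 2.66 and 2.60 to 11.85 and 11.98 (9.29, SE 0.21, adjusted p = 2.06e-08), and Tap2, a peptide transporter of antigen presentation, from 3.5 and 3.51 to 12.06 and 12.16 (8.60, SE 0.15, adjusted p = 8.3e-09). Dgkz, Dhx37, Dph2, Ube2d4, Slc2a13 and Clic5 rose by 8.43 to 9.86, and Aaas, A4galt and Rnf182 went from 0 in both untreated libraries to between 8.76 and 10.08. These 12 genes were also between 7.17 and 13.04 in both untreated wild type libraries. For Tap2 those levels were 12.03 and 11.99.

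Some cell cycle genes rose as steeply, while the lists they belong to moved in both directions. Pold1, the catalytic subunit of DNA polymerase delta, was at 3.76 and 3.78 untreated and 11.90 and 12.04 treated (8.2, SE 0.17, adjusted p = 1.62e-08). Ube2c, the ubiquitin-conjugating enzyme of the anaphase-promoting complex, went from 4.56 and 4.57 to 12.38 and 12.63 (7.94, SE 0.20, adjusted p = 4.38e-08), and Rrm1, a subunit of ribonucleotide reductase, from 6.33 and 6.36 to 13.01 and 12.49 (6.4, SE 0.23, adjusted p = 3.25e-07). Dut, Kif20a, Top2a and Cdk1 rose by 6.0, 3.75, 3.60 and 1.73. Against them stood falls of Mki67, the proliferation marker Ki-67, from 6.02 and 6.04 to 4.14 and 3.85, and of Pola1, polymerase alpha, from 4.10 and 4.03 to 1.99 and 1.91 (adjusted p = 0.00155 and 0.00117). DNA replication genes counted 11 rises (36.7%) and 6 falls (20%) of 30 and mitosis genes 7 (23.3%) and 14 (46.7%) of 30. The mitosis shares were near the 17.6% and 42.9% of all genes. After median-ratio scaling the counts were 17 and 2 for replication and 12 and 9 for mitosis. After quantile normalization they were 12 and 10 for replication and 9 and 16 for mitosis.

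At the other end, genes that fell to 0 in both treated libraries included Elovl5, a fatty acid elongase, at 6.4 and 6.43 untreated, Slfn13 at 5.34 and 5.32, Lrrc8c at 4.40 and 4.36, Cmtm7 at 4.31 and 4.26, Dlc1 at 4.27 in both and Mpdz at 3.94 and 3.97. Their limma adjusted p-values ran from 3.21e-06 to 0.00105. Of 32 genes with a mean of at least 1 FPKM untreated that were at 0 in both treated libraries, 28 were called, and 21 were at 0 in both untreated wild type libraries as well. In the opposite direction 34 genes went from 0 in both untreated libraries to a mean of at least 1 FPKM, 22 of them called, and 29 had a mean of at least 1 FPKM in untreated wild type. A value listed at 0 can be an estimate that failed, so no fold is read from these genes, and a fitted difference that rests on a 0 is no bound.

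**Figure D4:**
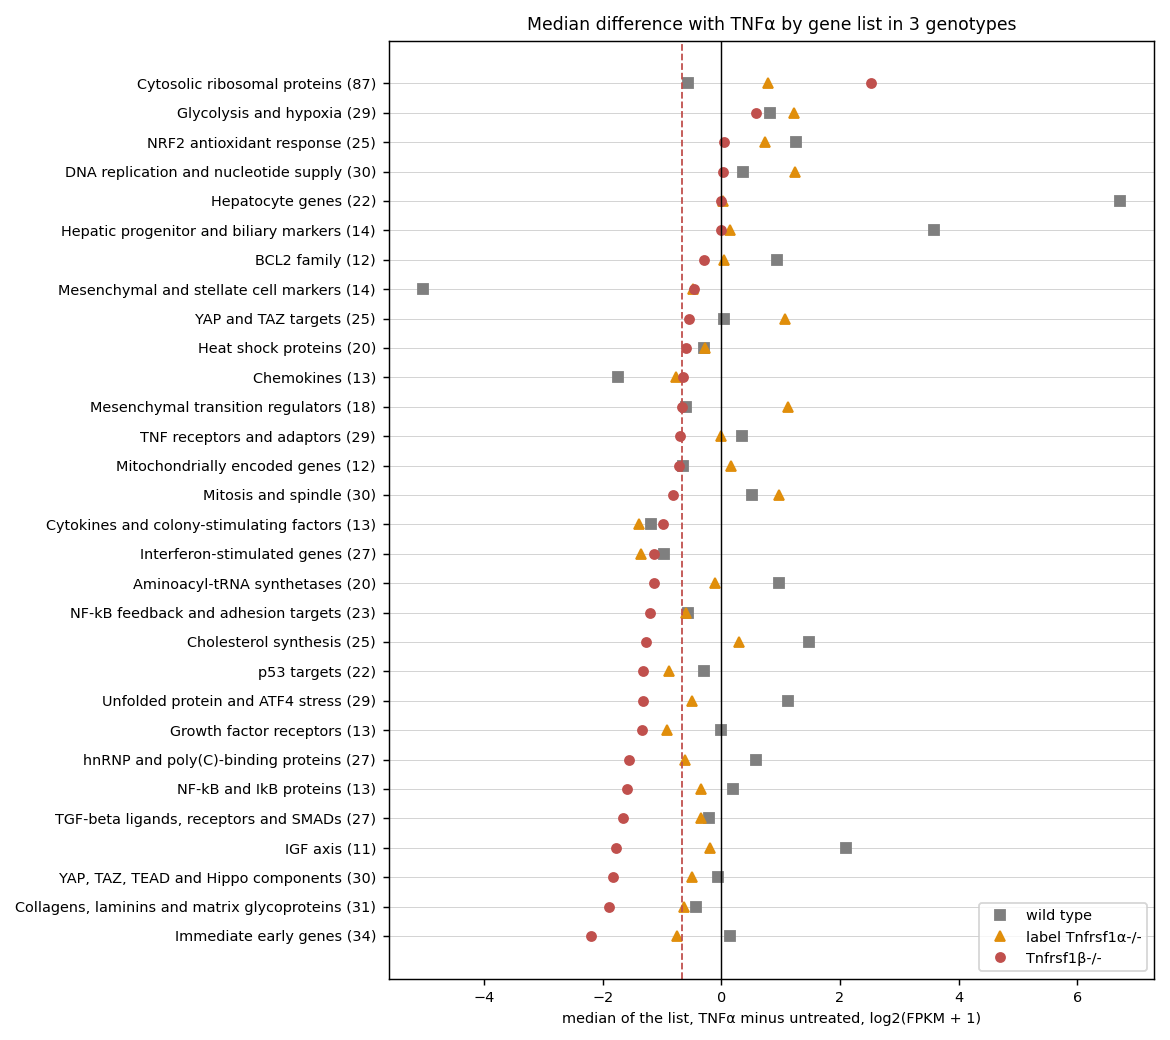
Median change after TNFα on the log2(FPKM + 1) scale (x axis) of the 30 gene lists with at least 5 tested members (rows) in wild type (grey squares), under the label Tnfrsf1α-/- (orange triangles) and in Tnfrsf1β-/- (red circles), with the median of all tested genes in Tnfrsf1β-/-, -0.66, as a dashed line. The ribosomal list is at 2.52 in Tnfrsf1β-/- against -0.57 in wild type and 0.78 under the label Tnfrsf1α-/-. Immediate early genes are at -2.20 against 0.15 in wild type and -0.75 under the label Tnfrsf1α-/-. A list most of whose members passed the level filter only through treated wild type, such as the hepatocyte genes, is placed high in wild type by that filter.

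Cytosolic ribosomal protein genes, the protein parts of the ribosome, moved almost as a block. Of 87 tested lines 83 rose and none fell, with a median of 2.52. The same direction was found after median-ratio scaling (85 and 0) and without treated replicate 1 (77 and 1) or 2 (78 and 0), while quantile normalization gave 44 higher and 9 lower. Rpl26 was at 8.42 and 8.36 untreated and 11.43 and 11.62 treated (3.14, SE 0.21, adjusted p = 1.89e-05), and Rps25 at 8.54 and 8.61 against 12.03 and 12.36 (3.62, SE 0.30, adjusted p = 6.77e-05). Both lines of Rpl32 and both of Rpl39 rose. The 4 lines that did not pass were Rpl3, Rpl4 and both of Rps6. Reads of these genes are shared with many processed pseudogenes, and how the authors assigned them is not given. The listed mitochondrially encoded transcripts, which leave out Mt-cox3, did not follow. Of 12, 1 rose (8.33%) and 3 fell (25%), against 17.6% and 42.9% of all genes. These counts became 2 and 2 by median-ratio and 0 and 11 by quantile scaling. Mt-atp8 fell from 12 in both to 10.20 and 9.42 (-2.19, SE 0.47, adjusted p = 0.004), and Mt-nd3 rose from 9.24 and 9.16 to 11.39 and 12.04 (2.52, SE 0.31, adjusted p = 0.000405), a rise of 0.51 that did not pass after quantile normalization (adjusted p = 0.152). Aminoacyl-tRNA synthetase genes, whose products charge tRNAs for the same ribosomes, fell in 10 of 20 cases (50%, against 42.9% of all genes) and rose in 1. Lars, for leucine, went from 5.66 in both to 3.75 and 2.90 (adjusted p = 0.00126). Farsa, for phenylalanine, rose from 5.18 and 5.10 to 6.12 and 6.14 (adjusted p = 0.00205). Only 4 synthetase falls were called after median-ratio scaling, and 13 without treated replicate 1 or 4 without replicate 2.

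In sterol metabolism, members moved in both directions. Insig1, a sterol sensor of the endoplasmic reticulum, was at 6.09 and 6.18 untreated and 2.72 and 2.76 treated (-3.40, SE 0.24, adjusted p = 2.28e-05). Tm7sf2, a sterol reductase, rose from 2.03 and 2.14 to 7.89 and 8.37 (6.04, SE 0.29, adjusted p = 1.92e-06). The list counted 6 rises (24%) and 11 falls (44%) of 25, near the 17.6% and 42.9% of all genes. After median-ratio scaling the counts were 6 and 4, so its majority depended on scaling. Growth factor receptors held 1 riser (7.69%) and 5 fallers (38.5%) among 13. The riser was Met, the receptor of hepatocyte growth factor, from 4.45 and 4.42 to 9.56 and 9.0 (4.84, SE 0.22, adjusted p = 1.31e-06). Ddr2, a collagen receptor, fell from 5.29 and 5.20 to 1.97 and 1.73 (-3.40, SE 0.38, adjusted p = 0.000266). Irs1 and Irs2, adaptors of the insulin receptors, fell from 2.31 and 2.25 to 0.24 and 0.10 and from 2.32 and 2.30 to 0.68 and 0.38 (adjusted p = 0.000304 and 0.000745).

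Among stress and death genes, rises of single members stood beside falls of others, in shares that moved with scaling. In the unfolded protein and ATF4 list 15 of 29 fell and 2 rose (median -1.32; 10 and 3 after median-ratio scaling; 8 and 2 without treated replicate 2). The falls made up 51.7% of this list, against 42.9% of all genes. The largest rise was Hsp90b1, the chaperone GRP94, from 9.14 and 9.20 to 12.56 and 12.01 (3.11, SE 0.29, adjusted p = 0.000111). Hspa5, its partner chaperone BiP, fell from 9.19 and 9.20 to 7.92 and 7.14 (adjusted p = 0.00643), and was not called after median-ratio scaling. Interferon-stimulated genes counted 14 falls (51.9%) and 4 rises (14.8%) of 27 (median -1.13), not far from the 42.9% and 17.6% of all genes. These became 12 and 5 by median-ratio, 16 and 1 by quantile scaling, and 11 and 1 without treated replicate 2. Ifit2, an interferon-induced inhibitor of translation, went from 3.08 and 3.15 to 0.47 and 0.36, and Ifi27 rose from 9.10 and 9.0 to 10.62 and 10.98 (adjusted p = 0.000332 and 0.000694), a rise that was -0.13 and not called after quantile normalization. Among p53 targets 12 of 22 fell (54.5% against 42.9% of all genes) and 2 rose (median -1.32), which became 7 and 5 by median-ratio, 8 and 2 by quantile scaling, and 8 and 2 without treated replicate 2. One that fell was Mdm2, the ubiquitin ligase of p53, going from 5.48 and 5.54 to 3.17 and 3.61 (adjusted p = 0.000717). The BCL2 family counted 4 rises and 4 falls among 12 (33.3% each, against 17.6% and 42.9% of all genes). These became 5 and 1 by median-ratio and 4 and 2 by quantile scaling. The falls were also fewer without treated replicate 2 or without either untreated replicate. Besides Bcl2l1, the pro-apoptotic Bax rose from 5.13 and 5.16 to 6.57 and 7.27, and Bcl2l11, which encodes BIM, fell from 2.62 and 2.47 to 0.85 and 0.56 (adjusted p = 0.000872 and 0.00122).

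Whether TNFα acted differently here than in wild type was tested gene by gene as a difference of responses. It passed for 7654 genes (64.5%), with the response higher in Tnfrsf1β-/- for 2048 (17.3%) and lower for 5606 (47.3%). After median-ratio scaling the numbers were 3374 and 3406, and after quantile normalization 3054 and 3375. The wild type libraries themselves changed in the markers they hold, and the part of this in the difference was not tested. TNFα changed 47.2% of genes in wild type, 31.9% higher and 15.3% lower. In wild type the whole hepatocyte list summed to 30.3 and 36.7 FPKM untreated and 6720 and 6820 treated, and the mesenchymal list to 29100 and 39400 against 2260 and 3120. No count of hepatocyte genes is given, because most of them passed the level filter only through treated wild type. The signed response of immediate early genes was lower in Tnfrsf1β-/- for 19 of 34 and higher for 8 (median change -2.20 in Tnfrsf1β-/- and 0.15 in wild type). For Fos the wild type levels were 0.33 and 0.16 untreated and 1.22 and 1.37 treated, so the gene was low in wild type throughout and high only in the untreated knockout libraries (difference -6.93, adjusted p = 4.09e-07). For ribosomal protein genes it was higher in 77 of 87 lines and lower in none, and for hnRNP genes lower in 20 of 27 and higher in 2 (median change -1.55 in Tnfrsf1β-/- and 0.59 in wild type). For Tmsb4x, the actin-binding peptide thymosin beta-4, the difference was 16.69 (adjusted p = 5.63e-08): it went from 13.14 and 13.89 to 0.51 and 0.46 in wild type and from 10.40 and 10.32 to 13.54 and 14.52 in Tnfrsf1β-/-.

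Against the cells labelled Tnfrsf1α-/- the difference of responses passed for 2388 genes (20.1%), higher in Tnfrsf1β-/- for 672 (5.67%) and lower for 1716 (14.5%). Rises and falls changed places under both scalings (1131 and 761 by median-ratio, 1169 and 839 by quantile scaling). The count also moved with single libraries. It was 692 or 656 without untreated Tnfrsf1β-/- replicate 1 or 2, 820 without treated replicate 2, and 742 or 707 without untreated Tnfrsf1α-/- replicate 1 or 2. It was 1331 without either treated wild type library, and 4941 or 6140 without treated Tnfrsf1α-/- replicate 1 or 2. The signed response of YAP and TAZ targets was lower in Tnfrsf1β-/- for 12 of 25 genes and higher for none (median change -0.55, and 1.07 under the label Tnfrsf1α-/-). Ankrd1, for example, went from 2.69 and 2.43 to 5.81 and 6.10 in Tnfrsf1β-/-, a rise of 3.40, and by 11.78 under the Tnfrsf1α-/- label (adjusted p of the difference = 2.73e-05). For ribosomal protein genes the signed response was higher in 44 of 87 lines and lower in none, and for DNA replication genes lower in 15 of 30 and higher in 3 (medians 0.02 and 1.24). The median change of immediate early genes was negative under both labels, -2.20 in Tnfrsf1β-/- and -0.75 under the label Tnfrsf1α-/-. Their response was lower in Tnfrsf1β-/- for 10 of 34 and higher for none. Sox17, an endodermal transcription factor, showed the largest difference upwards (8.94, adjusted p = 3.35e-06): it went from 0.43 and 0.54 to 8.55 and 8.39 in Tnfrsf1β-/- and from 0.92 and 0.99 to 0 in both under the Tnfrsf1α-/- label. Untreated wild type stood at 8.32 and 8.56. Asph, the aspartate beta-hydroxylase, showed the largest downwards (-13.47, adjusted p = 1.27e-07), falling from 2.97 and 2.99 to 1.45 and 1.11 against a rise from 2.35 and 2.31 to 14.24 and 13.94.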

How the data were processed

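RNA of the HPCs was extracted with Trizol and made into TruSeq libraries, per the labels' protocols; how reads were aligned, to which build, and how they were counted is not stated. The authors deposited 1 table of log2 FPKM values, with a highest value of 16.8 and none below 0. That it holds log2(FPKM + 1) was inferred from the values. Read depth is unknown, so no counting interval is given and the number of libraries limits the precision.

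Of 22730 lines, 346 without a symbol were left out, and 1835 that share a symbol were kept apart, so counts are of lines. All 12 columns were mapped by name, with 0 unused. Of the 11860 lines with a mean of at least 1 FPKM, 10446 (88.1%) matched a symbol of GRCr8, which served for names and promoters only. limma 3.58.1 in R 4.3.3 was fitted with 6 group means on all 12 libraries (6 residual degrees of freedom, empirical Bayes with intensity trend). P-values were adjusted by Benjamini-Hochberg within each contrast, the responses in wild type and under the label Tnfrsf1α-/- included, with a threshold of 0.05. The fit was tested on simulated data. Alternatives were 2 scalings, other pseudocounts and level filters, other sample sets, no trend, a replicate block and leaving out each library.

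The comparison and the 33 gene lists were chosen with earlier results of these data known. Genes were named by a rule: the title genes, 15 steepest rises and falls without overlap, up to 4 members a list with the smallest p, and 5 at each end of a difference of responses. Other list members were named after their values were seen. Some genes the rule names are not reported here.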

Additional observations from a re-analysis of the deposited data

Results flagged for a closer look

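The response to TNFα differed between Tnfrsf1β-/- and wild type for 7654 genes and between Tnfrsf1β-/- and the label Tnfrsf1α-/- for 2388, by limma's test of the difference of responses. Against wild type differences at the upper end, as log2 response in Tnfrsf1β-/- minus that in wild type, were 16.69 for Tmsb4x, 15.43 for Dmd (dystrophin), 15.23 for Tbxa2r (the thromboxane receptor) and 14.68 for S100a6. At the lower end they were -14.72 for Ceacam6, -13.79 for Asph, -13.59 for Mpdz, -13.50 for Amigo2 and -13.43 for Slfn13. Against the label Tnfrsf1α-/- the upper end held Sox17 (8.94), Dmd (8.08), Wfdc21 (6.30), Wfdc1 (6.24) and Foxs1 (5.14), and the lower end Asph (-13.47), Alpp (-12.39), Nars2 (-11.80), Abba1 (-10.81) and Tmem54 (-10.74). Dmd went from 2.35 and 2.44 to 8.95 and 8.40 in Tnfrsf1β-/-, while it was at 9.10 and 9.19 in untreated wild type and at 0 in both treated wild type libraries. Alpp, Tmem54 and Ceacam6 were at 0 in all 4 Tnfrsf1β-/- libraries. In Tnfrsf1β-/- Wfdc1 went from 5.78 and 5.63 to 6.80 and 7.94 and Foxs1 from 5.96 and 5.91 to 6.48 and 7.33. These changes did not pass the test (adjusted p = 0.309 and 0.474). Both were called higher when the 2 treated libraries labelled Tnfrsf1α-/- were left out of the limma fit (adjusted p = 0.00199 and 0.00858). Foxs1 was at 4.37 and 0 in those 2 libraries, and its difference from that label passed narrowly (limma adjusted p = 0.0485). Where a group was listed at 0, as for Sox17, Dmd, Mpdz, Slfn13, Abba1, Alpp, Tmem54 and Ceacam6, the difference is a fitted one on the log2(FPKM + 1) scale and neither a fold nor a bound. With 2 libraries in each group, no library could be examined as an outlier within its group.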

How the results depend on the processing

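Library scaling moved the balance of calls more than any other choice tried. Median-ratio scaling gave 3235 rises and 3247 falls in Tnfrsf1β-/-, 3374 and 3406 against wild type and 1131 and 761 against the label Tnfrsf1α-/-; quantile normalization gave 3375 falls against wild type and 1169 rises and 839 falls against the label Tnfrsf1α-/-. A minimum mean of 5 FPKM, with 8698 genes tested, left 3365 falls in Tnfrsf1β-/- and 3736 against wild type. Leaving out 1 library at a time gave 4979 to 8759 calls in Tnfrsf1β-/- (1596 to 2557 rises, 3328 to 6202 falls), 6216 to 9287 against wild type (1712 to 2597, 4491 to 6691) and 656 to 6140 against the label Tnfrsf1α-/- (183 to 1593, 473 to 4547). The labels do not say that a replicate number marks a shared source, and deviations of same-numbered libraries correlated above 0.1 in 9 of 15 pairs of groups (-0.17 to 0.24; -0.09 for the compared Tnfrsf1β-/- groups), so the samples are taken to share only a number. With a replicate block the 3 comparisons gave 7316, 7902 and 2991 calls. Over 187 named genes and 22 settings, 3973 of 4089 comparisons kept direction and call, 67 lost the call, 29 gained one and 20 turned. Those that turned were Cd24 (0.01, 0.02), Cd68 (-0.08 to 0.11, leaving out 1 library), Egr1 (-1.25), Gapdh (-0.73), Hnrnpab (-1.34, -0.01), Hnrnpk (0.60, and -0.41 to 0.06 leaving out 1 library), Ifi27 (-0.13), Krt18 (-0.05 to 0.19), Pcbp3 (0.13, 0.12), Ptbp1 (-1.11, and -0.09 to 0.11), Rpl3 (-1.08), Rpl4 (0.15) and Vim (0.42, and -1.01 to 0.29). Of these only Gapdh and Ifi27 had been called, and the cause was not tested.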

Other observations

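Gene families grouped by symbol after the values were seen moved in blocks that the lists above do not cover. Nuclear genes of the respiratory chain rose: 38 of 46 complex I lines with 1 fall (median change 2.13), 12 of 13 of complex IV (2.51), 8 of 9 of complex III (2.57) and 13 of 17 of ATP synthase (2.30), the last 3 with no falls. Mitochondrial ribosomal proteins rose in 52 of 73 lines (median 1.39) and mitochondrial import proteins in 18 of 24 (1.73), again with no falls. The 20S core of the proteasome rose in 15 of 17 lines (1.56). Its 19S cap was mixed, with 5 rises and 3 falls of 21, and the majority of the cap turned with scaling (14 and 1 by median-ratio, 3 and 8 by quantile scaling). Core spliceosomal Sm and Lsm proteins rose in 19 of 27 lines and fell in 2. Other families fell. Zinc finger genes with the prefix Zfp were lower in 147 of 195 lines and higher in 5 (median -1.36), histone lysine methylases and demethylases of the prefixes Kmt and Kdm lower in 22 of 24 (-1.88), and deubiquitinases of the prefix Usp lower in 33 of 41 and higher in 1 (-1.66). For comparison, 17.6% of all tested lines were higher and 42.9% lower. Among the 2965 lines of highest mean level those shares were 44.4% and 19.9%, and among the 2965 of lowest 4.49% and 49.8%. The part of level in these blocks was not tested. These families were picked for their changes, so their counts are a description.

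The genes that appeared from 0 were unevenly spread over the alphabet. Of the 34 listed at 0 in both untreated Tnfrsf1β-/- libraries with a mean of at least 1 FPKM after TNFα, 14 have symbols that start with A (41.2%), against 885 of all 11860 tested (7.46%). Of the 32 that went to 0 in both treated libraries, 2 start with A (6.25%). The count was made after Aaas, A4galt and Akr1c3 were seen among the steepest rises.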
